A study of Mus musculus with 18 samples.

Results

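Exon choice of sarcoplasmic reticulum (SR) calcium genes differed between HSA-LR and WT muscle. The differences lay at single exons of Atp2a1 and Ryr1, at a 93-bp exon of Stim1 and noncoding stretches beside it, and over much of Asph. Most summed levels of the genes did not pass the test of a difference. In the gastrocnemius, the 5′ part of Ryr1 also held more of the gene's counts in HSA-LR mice. That rise did not pass with a second test or without certain single mice. The 10 genes were Atp2a1, Atp2a2, Ryr1, Casq1, Casq2, Asph, Trdn, Sln, Pvalb and Stim1, chosen by name from the 46725 genes counted, and they held 336 of the 391858 exon bins. Bins are the pieces into which the annotation cuts exons wherever any exon of the gene starts or ends, and the share of a bin is its percentage of all counts on its gene. From 3 WT mice, 3 untreated HSA-LR mice and 3 HSA-LR mice given Pip6a-PMO intravenously, both a gastrocnemius and a quadriceps were sequenced, in 18 libraries. All mice had the FVB strain label and were 20 weeks old.

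HSA-LR mice model myotonic dystrophy. Their transgene, human skeletal actin driven by its own muscle promoter, carries an expanded CTG repeat and is active in skeletal muscle fibers, so treated and untreated HSA-LR mice alike carry a repeat that WT mice lack. Pip6a-PMO is a morpholino antisense oligomer of CAG repeats joined to a cell-penetrating peptide. The labels list WT and HSA-LR mice as untreated, although the protocol mentions saline, and the dose of the sequenced mice was not given in the sources used here.

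In muscle, an action potential opens Ryr1, the calcium release channel of the SR, and calcium leaves the store to start contraction. The pumps encoded by Atp2a1 (SERCA1, fast fibers) and Atp2a2 (SERCA2, slow fibers and heart) return it. Calsequestrin, made from Casq1 and Casq2, binds calcium inside the store, and the membrane proteins triadin and junctin (from Trdn and Asph) hold calsequestrin beside the channel. Sarcolipin (Sln) is a small inhibitor of the pumps, parvalbumin (Pvalb) buffers calcium in the cytosol of fast fibers, and Stim1 senses the filling of the store.

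The sequences below are from GENCODE M21 transcripts on GRCm38, 5′ to 3′, and show the exons on which the splicing results rest. Both Atp2a1 lines show the end of the reading frame. Exon 22 of 23 of Atp2a1-201 (chr7:126446545-126446586, minus strand, 42 bp, bin 003, coding and UTR) brings a stop codon after few bases, and its first 5 bases are in capitals. Without it, exon 21 joins the last exon (chr7:126445860-126446126), whose 26 bases up to and including its stop codon are in capitals.
Atp2a1 with exon 22: actatctggaggGATAA
Atp2a1 without exon 22: gaggATCCAGAAGACGAAAGAAGGAAGTAA
The 15-bp coding exon of Ryr1 (chr7:29056234-29056248, minus strand, bin 045, exon 70 of 106 in Ryr1-202) is in capitals between its neighbours.
Ryr1 with the 15-bp exon: ggccaagGCAGGAGACGTACAGtcaggtg
The first stretch of an early last exon of Asph (chr4:9630926-9630952, minus strand, bin 033, coding) is shown whole, since its share fell in HSA-LR mice in both muscles.
Asph alternative last exon: GCCTGACCAAAGATGGCAGTAATGAAA
The 93-bp coding exon of Stim1 (chr7:102428774-102428866, plus strand, bin 021), annotated only in Stim1-207, is shown by its first 30 bases.
Stim1 93-bp exon: ATGCTGCCTGGCTGATGGGGCGTAGGTTCA

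Library totals ran from 98916844 to 143135976 counts. WT mouse 2 is labelled female and WT mouse 3 male, whereas 4 Y-linked genes summed to 154.5 and 187.6 CPM (counts scaled to library size) in the muscles of WT mouse 2 and to 1.14 and 1.43 CPM in those of WT mouse 3. In HSA-LR and treated libraries, the same sum ran from 133.2 to 188.1 CPM. Only the WT group thus held a mouse with low Y-linked counts, and sex read from these counts was unbalanced in every comparison with WT mice. The gene calls of the 10 genes were also tested without each single mouse. In treated mouse 3, the gastrocnemius library had less coverage at the 5′ end of long transcripts, at 47.6% of the 3′ end, against 66.3% to 76.4% in the other 17 libraries. The skeletal fiber markers Acta1, Ckm, Ttn, Des and Mb summed to 60758 to 90036 CPM. In such whole-muscle RNA, fewer cells of a type and less RNA per cell cannot be told apart.

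Levels below are CPM of the sum of a gene's bins, scaled by TMM (a normalization for the composition of libraries). Calls rest on edgeR's quasi-likelihood test at an adjusted P under 0.1, adjusted by Benjamini-Hochberg over all genes tested, and the 9 libraries of each muscle were fitted together. The 3 mice of a group are separate animals, and each mouse gave both muscles. Per kilobase of exon, the WT gastrocnemius level was highest for Atp2a1 (mean 14574 CPM per kb), followed by Pvalb (7304), Casq1 (1647), Ryr1 (319), Atp2a2 (104), Stim1 (25.8), Casq2 (14.0), Asph (11.95) and Sln (2.39). This order compares genes only roughly, since a read pair counts once in each bin it overlaps. The level ranges of the 3 WT mice did not overlap between neighbours in this order, except for Casq2 and Asph. Trdn has no length here, because its identifier has another version in the annotation.

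Sln (chr9:53850164-53854560, plus strand) had the largest change among the 10 genes. In the gastrocnemius, its level was 1.78, 1.82 and 5.84 CPM in the WT mice, 76.6, 96.1 and 63.6 CPM in the HSA-LR mice and 8.69, 5.60 and 5.52 CPM in the treated mice. In the quadriceps, it was 0.619, 4.40 and 1.41 CPM in WT mice, 72.5, 41.8 and 19.3 CPM in HSA-LR mice and 13.1, 6.23 and 7.74 CPM in treated mice. Every HSA-LR library was above every WT and treated library of either muscle. Sln rose in HSA-LR mice with a log2 FC of 4.64 (SE 0.477, adjusted P = 0.000564) in the gastrocnemius, 24.9-fold, and of 4.38 (SE 0.754, adjusted P = 0.0067) in the quadriceps, 20.9-fold. It was lower in treated than in HSA-LR mice, by a log2 FC of -3.57 (adjusted P = 0.00382) in the gastrocnemius and -2.31 (adjusted P = 0.0759) in the quadriceps, and the second of these calls was lost without HSA-LR mouse 1 or 2 or any of the treated mice (adjusted P = 0.138 to 0.226). It was lost with the replicate number as a block as well (adjusted P = 0.115). Treated and WT mice differed by a log2 FC of 1.07 (adjusted P = 0.42) in the gastrocnemius, where the groups overlapped, and of 2.07 (adjusted P = 0.271) in the quadriceps, where every treated mouse was above every WT mouse. Without WT mouse 3, the gastrocnemius difference was 1.87 and passed, at an adjusted P of 0.0167. Sln is also a gene of the heart atria, and of the cardiac markers, the atrial genes Nppa and Myl7 were at most 0.0832 and 0.0697 CPM in any library. Myh6, a myosin of the heart, ran from 0.508 to 60.3 CPM in HSA-LR libraries and from 4.24 to 96.3 CPM in WT libraries, reached 247.7 CPM in the gastrocnemius of treated mouse 1 and was higher in treated than in HSA-LR quadriceps (log2 FC 3.91, adjusted P = 0.0573). Its part in the Sln values was not tested.

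Atp2a1 (chr7:126445858-126463108, minus strand), the fast SERCA pump, moved the other way. In the gastrocnemius, the level was 52638, 49212 and 50175 CPM in WT mice, 35666, 37809 and 36620 CPM in HSA-LR mice and 43178, 51473 and 52310 CPM in treated mice. In the quadriceps, it was 51393, 54067 and 52879 CPM in WT mice, 36904, 34356 and 43491 CPM in HSA-LR mice and 51849, 44219 and 60723 CPM in treated mice. The HSA-LR mice were below both other groups in each muscle. Atp2a1 fell in HSA-LR mice with a log2 FC of -0.47 (SE 0.130, adjusted P = 0.0491) in the gastrocnemius and -0.46 (SE 0.148, adjusted P = 0.0747) in the quadriceps. In treated against HSA-LR mice it rose in the gastrocnemius (log2 FC 0.42, adjusted P = 0.0958), while the quadriceps value of 0.44 did not pass the test (adjusted P = 0.106). The HSA-LR against WT call was lost in the gastrocnemius without WT mouse 1 or 2 or any HSA-LR mouse (adjusted P = 0.106 to 0.151), and in the quadriceps without any WT mouse, HSA-LR mouse 1 or 2 or treated mouse 1 (adjusted P = 0.116 to 0.181). The call in treated gastrocnemius was lost without WT mouse 2, any HSA-LR mouse or treated mouse 2 or 3 (adjusted P = 0.145 to 0.266). With the replicate number as a block, the gastrocnemius adjusted P was 0.149 for HSA-LR against WT mice and 0.227 for treated against HSA-LR mice, and the quadriceps value for treated against HSA-LR mice passed, at 0.0911. DESeq2 (0.0196) and a filter that kept every gene of at least 1 count (0.089) called that quadriceps value too, while the filter ended the call in treated gastrocnemius (0.103). With each gene counted by its largest bin alone, the adjusted P of Atp2a1 was 0.13 in HSA-LR against WT quadriceps and 0.144 in treated against HSA-LR gastrocnemius.

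In the quadriceps, Ryr1 passed the gene test in HSA-LR against WT and in treated against HSA-LR mice, and Stim1 in the latter alone. Neither gene passed in the gastrocnemius, but the difference between muscles passed for neither. It was tested by the interaction test of edgeR on the 18 libraries, without the mouse as a block (adjusted P = 0.683 to 1). With the mouse as a block, the adjusted P of these 2 genes was 0.49 to 0.982. Without the block, 0 of the 10 genes passed, and 0 had an unadjusted P under 0.05. Of all 16167 genes tested, 0 passed as well, so these counts do not set the 10 genes apart. The quadriceps level of Ryr1 was 6383, 7508 and 5909 CPM in WT mice, 4841, 4641 and 5442 CPM in HSA-LR mice and 6708, 6784 and 7876 CPM in treated mice. Again the HSA-LR mice lay below both other groups. In HSA-LR mice, Ryr1 fell by 0.40 on the log2 scale (SE 0.123, adjusted P = 0.0621), and it was higher by 0.51 in treated than in HSA-LR mice (adjusted P = 0.0442). The first call was lost without WT mouse 1 or 2 or HSA-LR mouse 1 or 2 (adjusted P = 0.113 to 0.171) and the second without HSA-LR mouse 1 or 2 or treated mouse 3 (adjusted P = 0.101 to 0.144). With each gene counted by its largest bin, both calls were lost (adjusted P = 0.197 and 0.258). In the gastrocnemius, the log2 FC of Ryr1 was -0.23 (adjusted P = 0.29) and 0.29 (adjusted P = 0.203), and the largest bin alone passed in both comparisons there (adjusted P = 0.0507 and 0.0358), as did the second with DESeq2 (0.0794). The quadriceps level of Stim1 was 249 to 281 CPM in WT mice, and HSA-LR against WT mice gave -0.20 (adjusted P = 0.265). It was 215, 211 and 263 CPM in HSA-LR mice and 295, 270 and 309 CPM in treated mice, which did not overlap. In treated against HSA-LR mice, Stim1 rose by 0.33 (adjusted P = 0.0904). That call was lost without HSA-LR mouse 1 or 2, WT mouse 1 or 2 or any treated mouse (adjusted P = 0.107 to 0.255) and with every gene of at least 1 count kept (0.113).

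Atp2a2 and Casq2, the isoforms of slow fibers and heart, varied widely between the mice of a group. The gastrocnemius level of Atp2a2 was 398, 721 and 770 CPM in WT mice, 705, 345 and 580 CPM in HSA-LR mice and 2562, 545 and 262 CPM in treated mice. In the quadriceps, it was 86.8, 82.3 and 113 CPM in WT mice, 95.7, 79.6 and 66.7 CPM in HSA-LR mice and 248, 425 and 66.4 CPM in treated mice. Gastrocnemius of treated mouse 1 and quadriceps of treated mice 1 and 2 stood above all other libraries of their muscle. A slow-fiber list of 7 genes, among them the myosin Myh7 and the light chain Myl2, varied alike. Its sum was 11980 CPM in the gastrocnemius of treated mouse 1 and 1491 to 4502 CPM in the other 8 gastrocnemius libraries. In the quadriceps, it was 753 and 1601 CPM in treated mice 1 and 2 and 18.5 to 417 CPM in the other libraries. The part of these fibers in the Atp2a2 values was not tested.

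The only Atp2a2 call was a rise of 1.60 on the log2 scale (adjusted P = 0.094) in treated against HSA-LR quadriceps. Treated mouse 3, at 66.4 CPM, was level with the lowest HSA-LR mouse, at 66.7 CPM. In this comparison, 5 of the 7 slow-fiber genes were called higher, with 6.54% of all genes called higher. The Atp2a2 call was lost without any 1 of the mice except treated mouse 3 (adjusted P = 0.106 to 0.274). It was also lost with the replicate block (adjusted P = 0.156). In the gastrocnemius, treated against HSA-LR mice gave 1.05 (adjusted P = 0.409), and -0.42 without treated mouse 1. In WT mice, the quadriceps level of Atp2a2 was below that of the gastrocnemius without overlap (log2 FC -2.73, SE 0.706). This did not pass the test of the 18 libraries (adjusted P = 0.151, with 0.297% of genes called) and did with the mouse as a block (log2 FC -2.69, adjusted P = 0.0349). Casq2 ranged from 16.5 to 59.0 CPM in the gastrocnemius and from 7.97 to 33.8 CPM in the quadriceps, with no call by edgeR on all mice. Without treated mouse 3, treated against HSA-LR quadriceps passed (log2 FC 1.51, adjusted P = 0.0393).

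**Figure D1:**
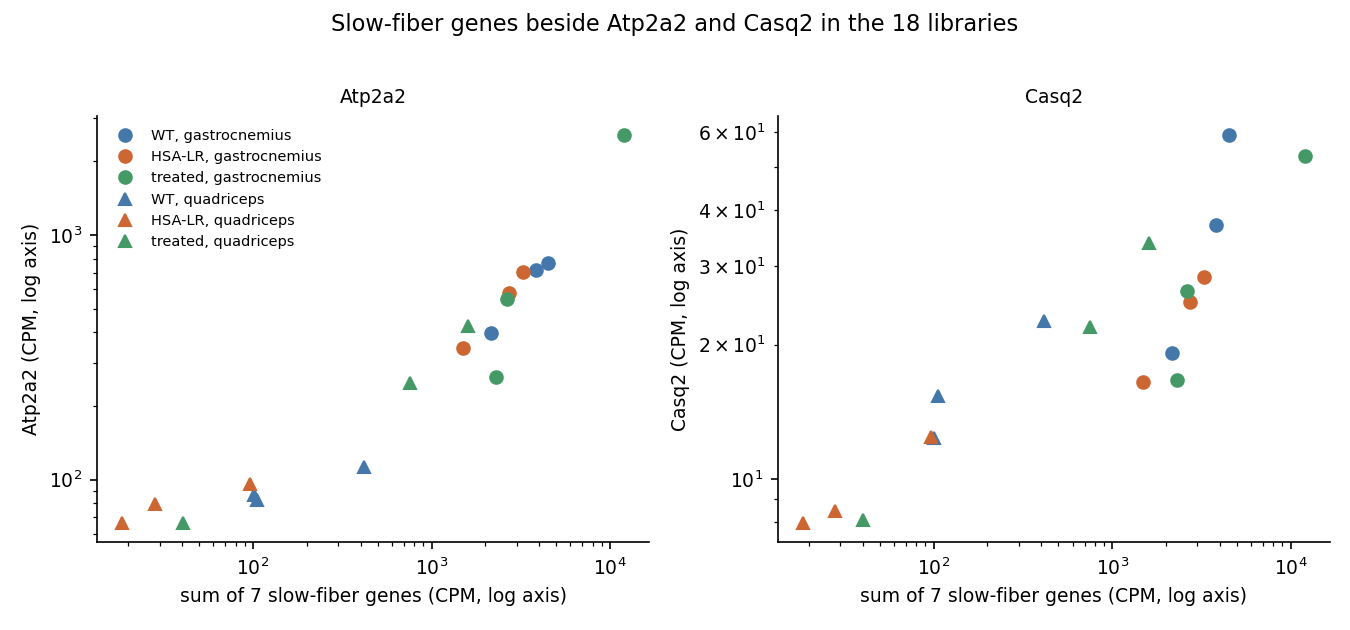
Atp2a2 (left) and Casq2 (right) against the sum of 7 slow-fiber genes, each point 1 library, all axes in CPM on a log scale, circles gastrocnemius and triangles quadriceps, colors the groups. The gastrocnemius of treated mouse 1, at 11980 CPM of slow-fiber genes and 2562 CPM of Atp2a2, lies farthest to the right.

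Casq1, Trdn, Asph and Pvalb were not called in any gene comparison by edgeR on all mice. Casq1 ran from 2470 to 4576 CPM and Trdn from 853 to 1302 CPM over the 18 libraries, and for both the WT and HSA-LR mice overlapped in the gastrocnemius. In the quadriceps, Casq1 was 2994 to 3693 CPM in WT mice and 2470 to 2857 CPM in HSA-LR mice, a log2 FC of -0.32 (adjusted P = 0.224) without overlap. Asph was 228 to 244 CPM in HSA-LR against 170 to 204 CPM in WT gastrocnemius, which did not overlap (log2 FC 0.28, adjusted P = 0.24), and 190 to 210 against 163 to 182 CPM in the quadriceps, which did not overlap either (log2 FC 0.24, adjusted P = 0.156). Pvalb ran from 6030 to 6782 CPM in HSA-LR gastrocnemius and from 6119 to 9305 CPM in WT gastrocnemius, and reached 12505 CPM in treated mouse 3. Some of these passed in other settings. Without treated mouse 3, Asph was called in both muscles, at an adjusted P of 0.0539 and 0.0899 for HSA-LR against WT mice and of 0.0453 and 0.0903 for treated against HSA-LR mice. Casq1 passed for treated against HSA-LR mice in the quadriceps with DESeq2 (0.0692), by its largest bin (0.0997) and without treated mouse 2 (0.0638), and Pvalb in the gastrocnemius with DESeq2 (0.0575) and without treated mouse 1.

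Among the 10 genes, 2 were called in HSA-LR against WT gastrocnemius, with 15.5% of all genes tested called, and 3 in the quadriceps, with 20.3% called. In treated against HSA-LR mice, 2 were called in the gastrocnemius (10% of all genes) and 4 in the quadriceps (13.8%). In treated against WT mice, 0 of the 10 genes were called in either muscle by edgeR, with 1.04% and 1.41% of all genes called. DESeq2 gave 0 as well, and 1 and 2 of the 10 had an unadjusted P under 0.05. HSA-LR mice entered both of the first comparisons, so their opposite signs are not independent. The median log2 FC of the 10 genes was -0.19 and -0.21 in HSA-LR against WT mice, beside -0.01 and 0.01 for all genes tested.

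Marker genes of some other fiber and cell types moved with these groups, and those of others did not. Of all genes tested, 8.6% were called higher and 6.94% lower in HSA-LR against WT gastrocnemius, and 11% and 9.31% in the quadriceps. In treated against HSA-LR mice, these shares were 4.49% and 5.53% in the gastrocnemius and 6.54% and 7.22% in the quadriceps. Among 8 fast-fiber genes, 4 were called lower in HSA-LR quadriceps. The sum of the list was 110259 to 128671 CPM there, against 138480 to 161619 CPM in WT mice. In the gastrocnemius, the ranges overlapped (118744 to 130612 against 126677 to 159664 CPM), and 1 of the genes was called, Myh1, which was higher in HSA-LR mice (log2 FC 1.97, adjusted P = 0.00908). Treated mice had 3 fast-fiber genes called higher than HSA-LR mice in each muscle, and Myh1 lower in the gastrocnemius. Of 6 macrophage genes, 5 were called higher in HSA-LR quadriceps and 2 in HSA-LR gastrocnemius, and the list summed to 62.3 to 77.6 CPM against 27.7 to 45.3 CPM and to 56.5 to 62.4 CPM against 42.1 to 55.7 CPM. Treated mice had 5 and 3 of them called lower than HSA-LR mice. Of 4 endothelial genes, 3 were called lower in HSA-LR quadriceps and 0 in the other group comparisons. Of 7 slow-fiber genes, 0 were called in HSA-LR against WT gastrocnemius and 1, lower, in the quadriceps. Of 6 adipocyte and 5 erythroid genes, 0 were called in any group comparison. Their sums varied widely within groups, with erythroid genes at 781 to 3863 CPM in WT gastrocnemius and adipocyte genes at 125 to 1378 CPM in HSA-LR quadriceps. Of 5 genes of satellite cells and regenerating fibers, 2 were called higher in HSA-LR gastrocnemius and 3 higher and 1 lower in HSA-LR quadriceps. Of 2 fibroblast genes tested, 1 was called higher in HSA-LR quadriceps. Among the 5 skeletal fiber markers, 1 was called higher in HSA-LR gastrocnemius, and 1 higher and 1 lower in HSA-LR quadriceps. Treated against HSA-LR mice had 1 of these 5 higher and 1 lower in the gastrocnemius and 1 higher in the quadriceps. The part of these fibers and cells in the changes of Sln, Atp2a1 and Ryr1 was not tested.

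**Figure D2:**
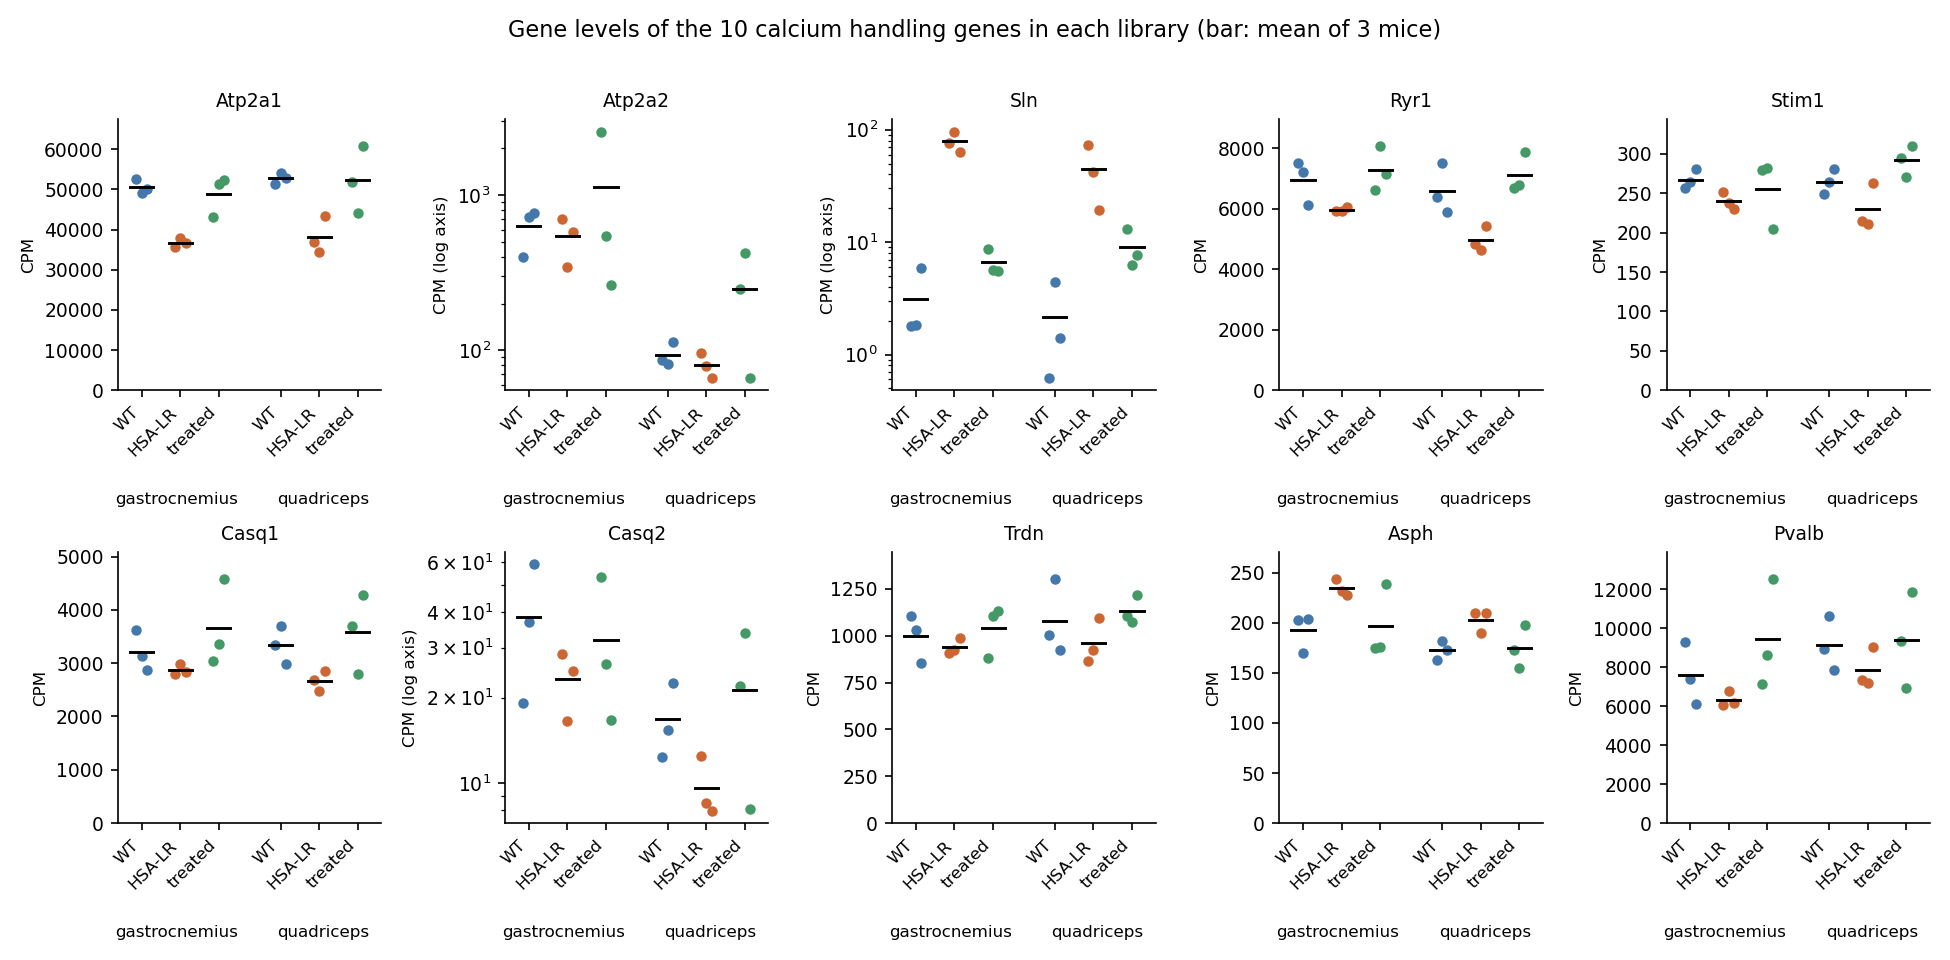
Level of each of the 10 genes in the 18 libraries, in CPM on the vertical axis (log axes for Atp2a2, Sln and Casq2, all others from 0), with 1 point a mouse and a bar at the mean of 3 mice, by group and muscle. Sln in HSA-LR mice, at 19.3 to 96.1 CPM, lies above all WT and treated values, and Atp2a1 in HSA-LR mice, at 34356 to 43491 CPM, lies below all WT values.

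Exon bins were tested with diffSpliceDGE of edgeR, so a log2 change of a bin is relative to the whole gene, with adjustment over all bins. In HSA-LR against WT gastrocnemius, 58 of the 310 bins tested in the 10 genes were called, 18.7%, with 0.819% called over all bins, and in the quadriceps 20 of 307, 6.51%, with 0.284%. In treated against HSA-LR mice, 29 (9.35%, with 0.309% over all bins) and 10 (3.26%, with 0.168%) were called. In treated against WT mice, 2 were called in the gastrocnemius, both in Asph (0.0654% over all bins), and 0 in the quadriceps (0.0353%), where 5 had an unadjusted P under 0.05 and limma voom called 2, both in Asph. Over Atp2a2, Casq2, Trdn, Sln and Pvalb, 0 bins were called in any of these comparisons by either tool, and 0 to 2 had an unadjusted P under 0.05. Bins of a gene share read pairs, so neighbouring bins are not separate observations.

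Exon 22 of Atp2a1 was the only bin of that gene called among 25. In the quadriceps, its share was 3.98%, 3.98% and 3.95% in WT mice, 0.922%, 0.831% and 0.861% in HSA-LR mice and 3.57%, 3.84% and 3.61% in treated mice. In the gastrocnemius, the shares were 3.86% to 3.93%, 0.729% to 0.967% and 3.81% to 4.84%. The HSA-LR mice were far from both other groups, and the highest value, 4.84%, came from the library of treated mouse 3 with low 5′ coverage. The share of the exon fell by 2.20 and 2.19 on the log2 scale relative to the gene in the gastrocnemius and the quadriceps (adjusted P = 3.29e-17 and 3.13e-17) and was higher by 2.31 and 2.07 in treated than in HSA-LR mice (adjusted P = 1.03e-18 and 2.81e-15). Treated and WT mice differed by 0.11 and -0.12 (adjusted P = 1 in both). The exon decides which of the ends shown above the pump receives, the adult SERCA1a end with it or the neonatal SERCA1b end without it.

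The 15-bp exon of Ryr1, bin 045, behaved likewise. In the gastrocnemius, its share was 0.853%, 0.732% and 0.695% in WT mice, 0.138%, 0.119% and 0.105% in HSA-LR mice and 0.567%, 0.756% and 0.654% in treated mice. In the quadriceps, it was 0.774%, 0.724% and 0.671% in WT mice, 0.0925%, 0.102% and 0.119% in HSA-LR mice and 0.586%, 0.517% and 0.695% in treated mice. No HSA-LR mouse came near the other groups, whose ranges overlapped each other. The exon fell by 2.67 and 2.79 relative to the gene (adjusted P = 1.45e-13 and 6.11e-07) and was higher by 2.46 and 2.52 in treated than in HSA-LR mice (adjusted P = 1.9e-11 and 1.75e-05). It lies in the middle of the long reading frame of the channel and holds a multiple of 3 bases. A further short coding exon, the 18-bp bin 027 (chr7:29044919-29044936), had shares of 0.849% and 0.824% in WT mice and 0.640% and 0.722% in HSA-LR mice and was not called (log2 changes of -0.41 and -0.18, adjusted P = 1 in both).

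Of the other Ryr1 bins, 27 were called higher in HSA-LR gastrocnemius, all of them between bins 087 and 122 in the 5′ part of the gene, with log2 changes of 0.92 to 1.03 (adjusted P = 0.0267 to 0.0979). The change rose gradually from bin 050 toward bin 087 and was nearly level from there to the 5′ end. Together the 27 bins held 3.57%, 3.99% and 1.99% of the Ryr1 counts in WT mice, 5.15%, 6.30% and 7.47% in HSA-LR mice and 3.12%, 5.55% and 3.73% in treated mice. The bins were picked because they were called higher in these HSA-LR mice, so their sums there add no support to the calls. In the quadriceps, they held 3.21%, 10.3% and 4.55% in WT mice, 2.54%, 9.25% and 6.05% in HSA-LR mice and 9.60%, 10.4% and 6.56% in treated mice, the groups overlapped and 0 of the 27 were called (adjusted P = 1 in each). The difference between muscles was not tested. The 5′ coverage of long transcripts, as a percentage of 3′ coverage, was 67.7% to 70.7% in WT and 72.7% to 73.4% in HSA-LR gastrocnemius, and 67.0% to 75.6% and 69.2% to 75.7% in the quadriceps. With this coverage as a covariate, chosen after seeing the data, 7 Ryr1 bins were called higher in HSA-LR gastrocnemius. Without WT mouse 1, WT mouse 3, HSA-LR mouse 2 or HSA-LR mouse 3, and with limma voom in place of diffSpliceDGE, 0 bins were called higher, whereas the 15-bp exon was called each time.

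**Figure D3:**
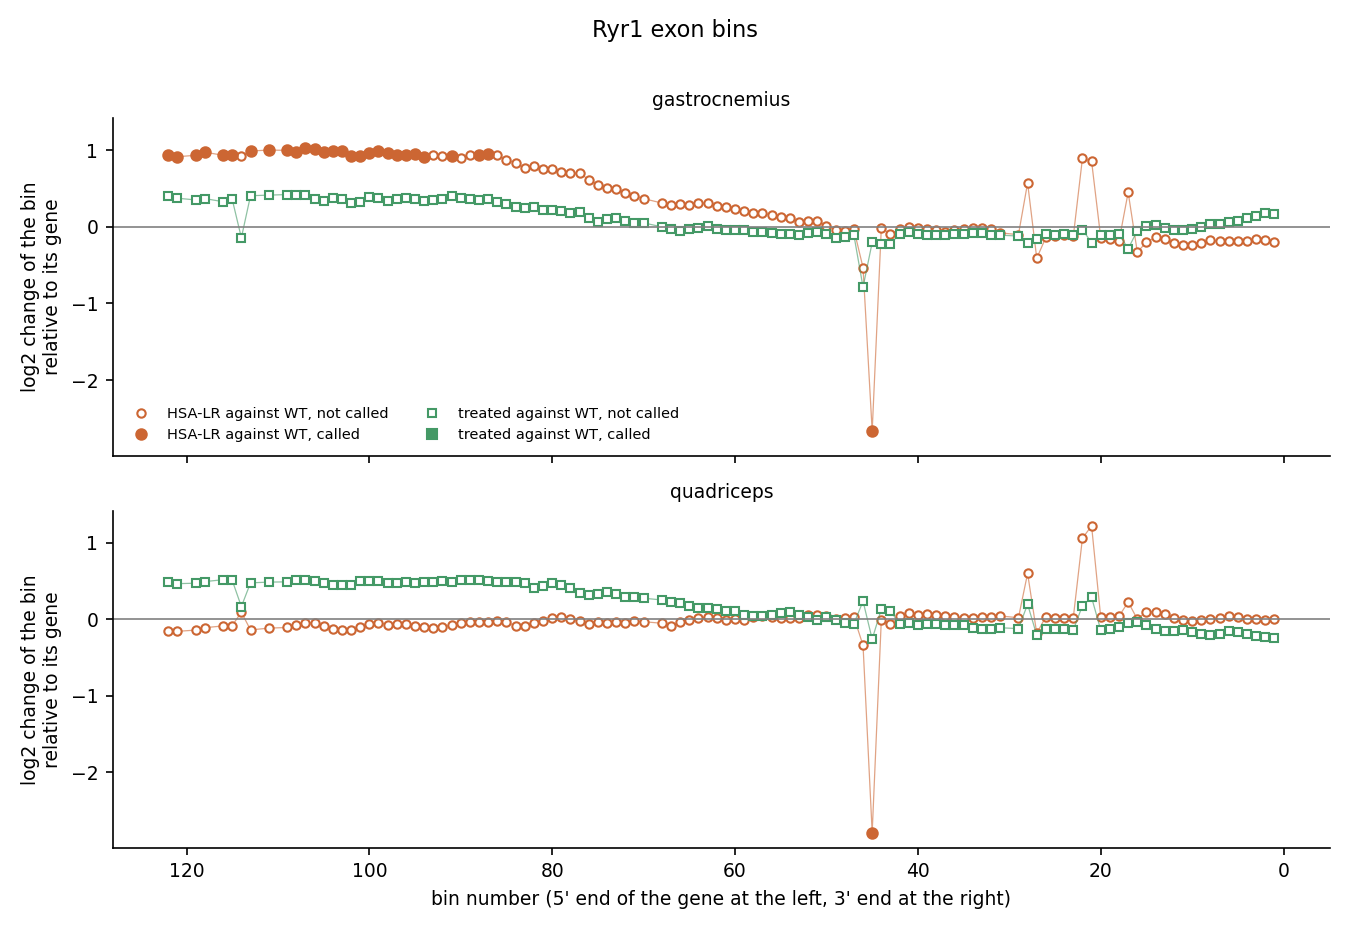
Log2 change of each Ryr1 bin relative to its gene (vertical axis) by bin number from the 5′ end at the left (horizontal axis), gastrocnemius above and quadriceps below, circles HSA-LR against WT and squares treated against WT, filled where called. Bin 045 falls by 2.67 and 2.79 in HSA-LR mice in both muscles, whereas called rises over bins 087 to 122 in HSA-LR mice appear in the gastrocnemius panel alone.

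Asph had the largest share of tested bins called among the 10 genes, 25 of 37 in HSA-LR against WT gastrocnemius and 16 of 37 in the quadriceps. The gene makes a long enzyme, aspartate beta-hydroxylase, whose catalytic part lies at the far end, and short proteins that lack it, among them junctin and junctate of the SR. Its transcripts therefore end at several places. In these muscles the bins 028 to 030, where the short transcripts Asph-201 and Asph-206 end, held the largest part, 54.3% ± 0.660 (SD, n = 3 mice) of the counts in WT and 50.4% ± 0.611 in HSA-LR gastrocnemius, and 0 of these 3 bins were called in any comparison or had an unadjusted P under 0.05.

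The early last exon of Asph, bins 031 to 033 (chr4:9629023-9630952, where Asph-205, Asph-215 and Asph-217 end), fell in both muscles at bins 032 and 033. Bin 031 was called in the gastrocnemius (log2 change -2.04, adjusted P = 5.31e-08), and its change of -1.17 in the quadriceps did not pass the test (adjusted P = 0.145). Bin 032 held 1.57%, 1.56% and 2.11% of the counts in WT gastrocnemius, 0.253%, 0.225% and 0.208% in HSA-LR mice and 0.890%, 1.06% and 0.879% in treated mice. In the quadriceps, it held 1.82%, 1.78% and 1.99% in WT mice, 0.371%, 0.335% and 0.448% in HSA-LR mice and 1.13%, 1.10% and 1.07% in treated mice. The 3 groups did not overlap in either muscle, and the treated mice lay between the other groups. In HSA-LR mice, bin 032 fell by 2.94 and 2.28 on the log2 scale relative to the gene (adjusted P = 4.26e-33 and 2.15e-19), and it was higher by 2.02 and 1.51 in treated than in HSA-LR mice (adjusted P = 6.71e-17 and 1.16e-07).

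Asph bin 033, the 27 bases printed above, went with it, with mean shares of 1.12% and 1.17% in WT, 0.150% and 0.248% in HSA-LR and 0.546% and 0.680% in treated gastrocnemius and quadriceps. It fell by 2.91 and 2.24 in HSA-LR mice (adjusted P = 3.53e-29 and 5.37e-16). Bins 032 and 033 were also the 2 bins called lower in treated than in WT gastrocnemius, with log2 changes of -0.92 (adjusted P = 0.00393) and -1.08 (adjusted P = 0.000619). Without WT mouse 3, whose shares of 2.11% and 1.39% were the highest, 0 bins were called there. In the treated quadriceps, the corresponding differences of -0.77 and -0.79 did not pass the test, and limma voom called 2 Asph bins lower there.

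The bins of the extended Asph transcripts rose instead. Of the 24 tested bins between 002 and 027, 22 were called higher in HSA-LR gastrocnemius, with log2 changes of 0.88 to 1.79 (adjusted P = 8.25e-07 to 0.026), and 14 in the quadriceps, with changes of 0.90 to 1.65 (adjusted P = 0.000616 to 0.0855), while 0.591% and 0.165% of all bins were called higher. Bins 002 to 024 together held 5.42% ± 0.408 (SD, n = 3) of the counts in WT, 12.4% ± 1.48 in HSA-LR and 5.05% ± 1.23 in treated gastrocnemius, and 6.19% ± 0.962, 12.6% ± 2.63 and 6.27% ± 1.62 in the quadriceps. Coding bin 022 (chr4:9601307-9601363, 57 bp), for example, held 0.161%, 0.221% and 0.143% in WT, 0.519%, 0.550% and 0.438% in HSA-LR and 0.232%, 0.238% and 0.112% in treated gastrocnemius, and the HSA-LR mice stood above both other groups. In treated against HSA-LR mice, 21 of these bins were called lower in the gastrocnemius (0.195% of all bins) and 5 in the quadriceps (0.0897%), and against WT mice 0 were called in either muscle, where 1 and 0 had an unadjusted P under 0.05. Only bin 014, a noncoding exon, was called the other way (log2 change 1.49 in treated against HSA-LR gastrocnemius, adjusted P = 0.0988). The quadriceps count of 16 Asph bins fell to 7 without WT mouse 2, to 4 without WT mouse 3, to 2 without HSA-LR mouse 2 and to 9 with limma voom, and bins 032 and 033 were called each time. A read pair counts in every bin it overlaps, and the part of these changes in the uncalled differences of the Asph sums given above was not tested.

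**Figure D4:**
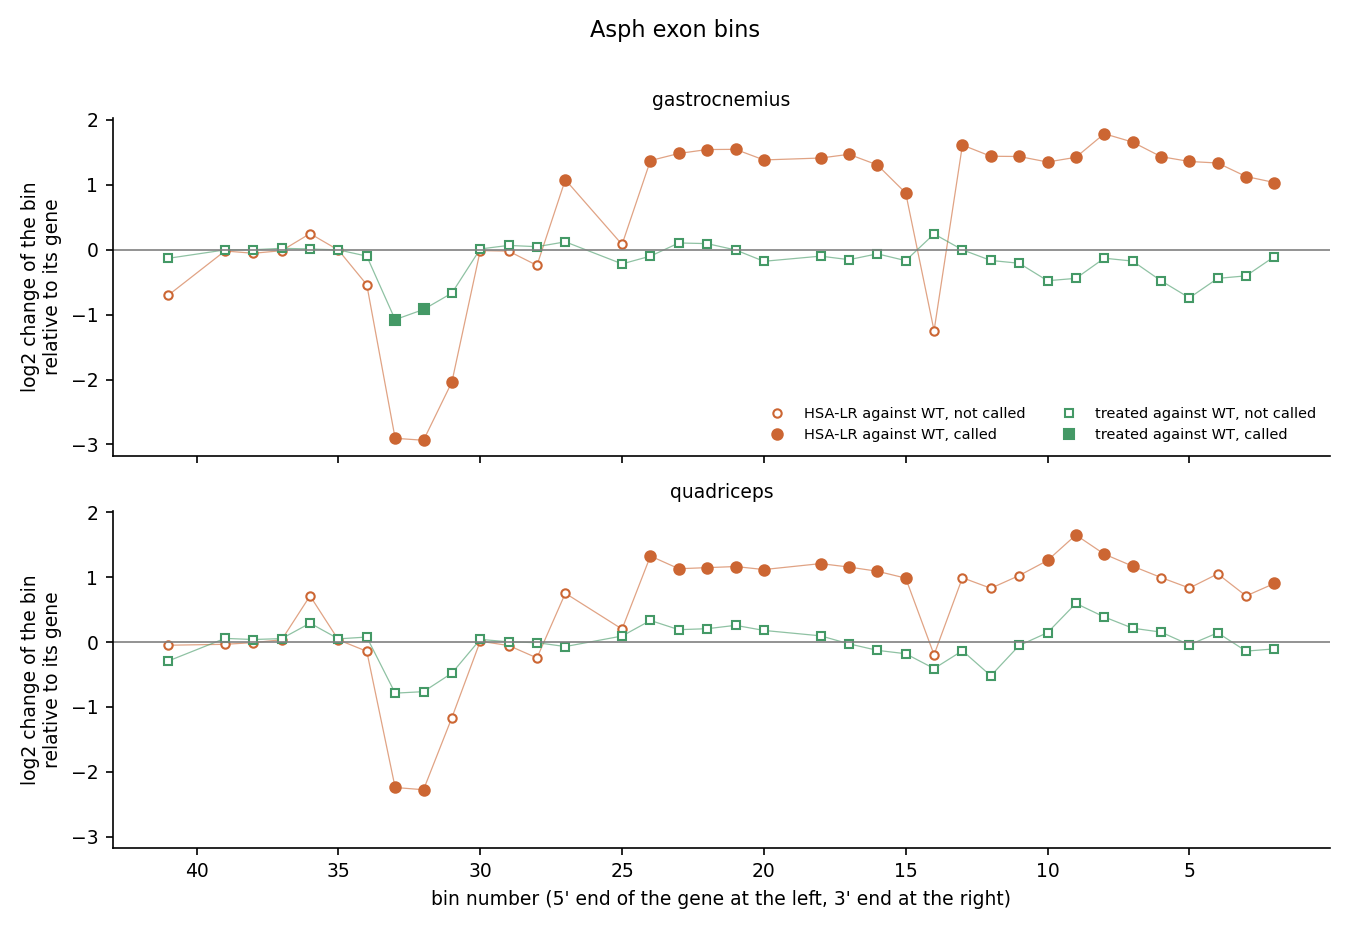
Log2 change of each Asph bin relative to its gene (vertical axis) by bin number from the 5′ end at the left (horizontal axis), gastrocnemius above and quadriceps below, circles HSA-LR against WT and squares treated against WT, filled where called. In HSA-LR mice bins 031 to 033 lie below 0 and bins 002 to 024 other than 014 above 0, and the only called bins of treated mice are 032 and 033 in the gastrocnemius, at -0.92 and -1.08.

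In Stim1, the 93-bp coding exon was used more in HSA-LR mice. Its share was 0.351%, 0.451% and 0.315% in WT, 1.07%, 1.25% and 1.09% in HSA-LR and 0.501%, 0.381% and 0.465% in treated gastrocnemius. In the quadriceps, the shares were 0.336%, 0.405% and 0.234% in WT, 0.861%, 1.17% and 1.04% in HSA-LR and 0.465%, 0.362% and 0.391% in treated mice. Every HSA-LR mouse was above every other mouse. The exon rose by 1.61 and 1.67 relative to the gene (adjusted P = 4.25e-12 and 1.5e-09) and changed by -1.34 and -1.33 in treated against HSA-LR mice (adjusted P = 9.01e-08 and 8.43e-06). The count behind it was low, with means of 134 and 98.3 pairs in WT and 344 and 292 in HSA-LR libraries.

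The noncoding Stim1 bins 020 and 022 beside this exon were also higher in HSA-LR gastrocnemius (log2 changes 1.53 and 1.10, adjusted P = 5.82e-09 and 0.0169), and bin 020 in the quadriceps (1.15, adjusted P = 0.00237). The call of bin 022 was lost without HSA-LR mouse 1 or 2 or WT mouse 1 or 3 (adjusted P = 0.17 to 0.241) and that of bin 020 in the quadriceps without HSA-LR mouse 2 (0.191). Bin 025 (chr7:102430952-102431275, 324 bp), the coding stretch that makes the longer Stim1L of skeletal muscle, had mean shares of 4.01% and 3.87% in WT, 3.35% and 3.74% in HSA-LR and 3.11% and 3.44% in treated mice and was not called. In Casq1, 1 bin was called, the noncoding bin 007 in HSA-LR gastrocnemius (log2 change 1.57, adjusted P = 0.000428), at means of 27.7 pairs in WT and 68.0 in HSA-LR libraries. It was lost without HSA-LR mouse 3 (adjusted P = 0.149).

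**Figure D5:**
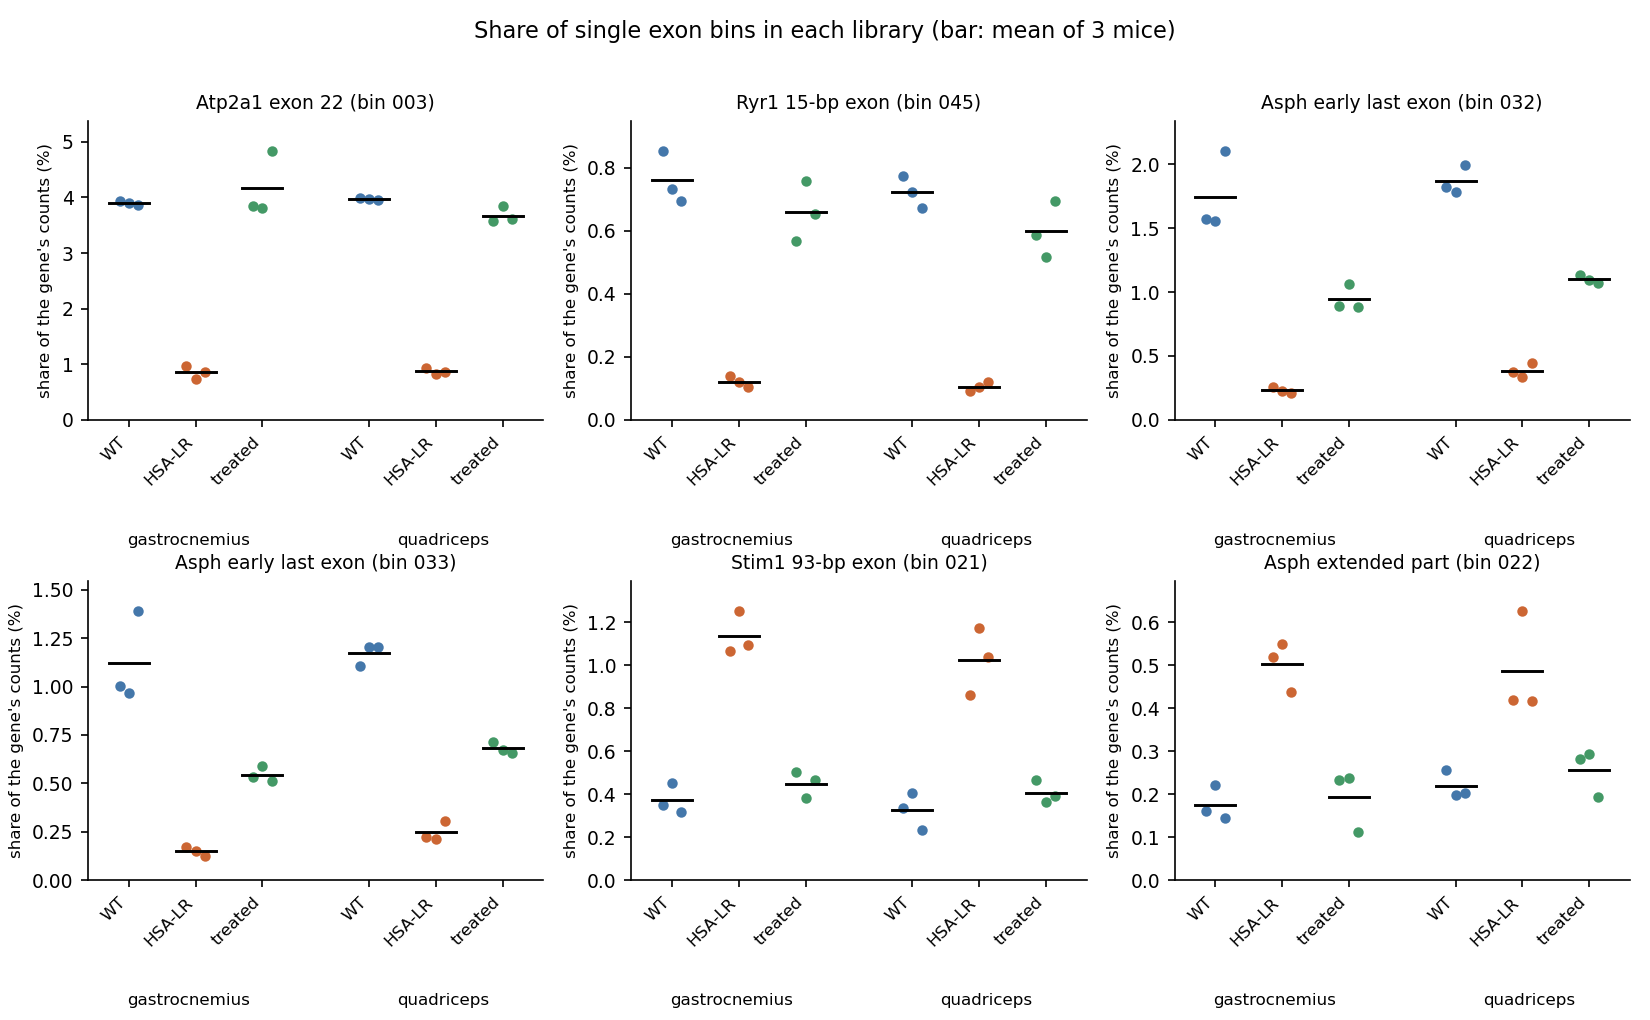
Share of 6 bins in the counts of their gene, in percent from 0 on the vertical axis, in the 18 libraries by group and muscle, with 1 point a mouse and a bar at the mean of 3 mice. In HSA-LR mice Atp2a1 exon 22 (0.729% to 0.967%), the Ryr1 15-bp exon and Asph bins 032 and 033 lie below all other mice, and Stim1 bin 021 and Asph bin 022 above them.

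The shares of the ends of Atp2a2 are given by muscle as a description. Bin 004, in the end of the ubiquitous SERCA2b transcript (chr5:122456340-122457302), held 1.68% ± 0.207 (SD, n = 3) of the Atp2a2 counts in WT gastrocnemius and 5.52% ± 1.12 in WT quadriceps, without overlap. In HSA-LR mice it held 1.52% ± 0.213 and 5.21% ± 1.41, and in treated mice 1.78% ± 0.743 and 3.24% ± 2.06. Bin 002, which ends the muscle form SERCA2a, held 12.1% ± 0.403 and 9.77% ± 0.751 in WT mice. No Atp2a2 bin was called between groups, and the shares were not tested between muscles.

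Of a list of 38 other genes of excitation-contraction coupling and SR calcium, 36 were tested, and Strit1 and Tmem38b are not reported. In HSA-LR against WT gastrocnemius, 3 were called higher (8.6% of all genes tested) and 5 lower (6.94%), and in the quadriceps 3 higher (11%) and 3 lower (9.31%). In treated against HSA-LR mice, 5 were higher (4.49%) and 2 lower (5.53%) in the gastrocnemius and 7 higher (6.54%) and 3 lower (7.22%) in the quadriceps. Against WT mice, treated gastrocnemius had 0 called by edgeR (4 with an unadjusted P under 0.05) and treated quadriceps 2, Camk2d and Srl (log2 FC 0.50 and 0.64, adjusted P = 0.0586 and 0.0953).

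Camk2d, a subunit of the calmodulin kinase that phosphorylates SR proteins, had the smallest P of the list and rose by 1.18 and 1.37 in HSA-LR mice (adjusted P = 0.000482 and 8.92e-05), and changed by -1.01 and -0.86 in treated against HSA-LR mice (adjusted P = 0.00346 and 0.00205). Cacng1, the gamma subunit of the voltage sensor, rose as well (0.71 and 0.83, adjusted P = 0.0633 and 0.00523), and its gastrocnemius call was lost without any HSA-LR mouse or WT mouse 2 or 3 (adjusted P = 0.138 to 0.163) and with the replicate block (0.13). Calm3, which encodes the calcium sensor calmodulin, fell by 0.64 and 0.76 (adjusted P = 0.0462 and 0.0141), and the first of these calls was lost without HSA-LR mouse 1 or 3 or WT mouse 1 or 2 (adjusted P = 0.127 to 0.152). Jph2, a junctophilin that ties the SR to the surface membrane, fell by 0.59 in HSA-LR gastrocnemius (adjusted P = 0.0188). Its quadriceps value of -0.33 did not pass the test (adjusted P = 0.224). Jph2 rose by 0.70 and 0.61 in treated against HSA-LR mice (adjusted P = 0.0171 and 0.0559). Ryr3, a second release channel that adult muscle holds little of, rose in the gastrocnemius (1.28, adjusted P = 0.0345) and had a value of -0.11 (adjusted P = 0.889) in the quadriceps, with no called difference between muscles, and the call was lost without HSA-LR mouse 3 (adjusted P = 0.124). Camk2b rose by 0.44 in the quadriceps (adjusted P = 0.0144), and its gastrocnemius value of 0.16 did not pass the test (adjusted P = 0.277). Camk2g and the SR anchor Ank1 fell by 0.35 and 0.42 in the gastrocnemius (adjusted P = 0.0423 and 0.0408). Their quadriceps values of -0.30 and -0.43 did not pass the test (adjusted P = 0.144 and 0.101). The call of Camk2g was lost without any HSA-LR mouse or WT mouse 1 or 2 (adjusted P = 0.109 to 0.131) and that of Ank1 without HSA-LR mouse 1 or 3 (0.112 and 0.149). The treated comparisons of these listed genes were not repeated without single mice. The median log2 FC of the 36 genes was 0.00 and -0.09 in HSA-LR against WT mice.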

How the data were processed

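Stranded, poly(A)-selected libraries were made from both muscles of each mouse. The authors deposited unnormalized counts for each of the 18 libraries, in which every read pair adds 1 to each exon bin (GRCm38) it overlaps. The submitters' processing notes name CASAVA, HISAT and featureCounts 1.5.0, with no role or order. Gene counts here were sums over bins, which weigh genes with many short bins more. Entries that name no gene (2.82% to 4.14% of counts) were left out. Transcript names, coordinates and sequences came from GENCODE M21.

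Counts were tested with edgeR 4.0.16 in R 4.3.3 (filterByExpr with a minimum count of 10 and a total of 15, TMM, quasi-likelihood fit, Benjamini-Hochberg adjustment, threshold 0.1), separately for each muscle, with all 9 libraries in 1 fit. Bins were tested with diffSpliceDGE. Differences between muscles used a fit of all 18 libraries without the mouse as a block. The numbers pair the muscles of a mouse, since same-mouse deviations correlated (median r = 0.366, lowest 0.166, 9 pairs). The alternatives used DESeq2 1.42.0, voom of limma 3.58.1, other filters, blocks and leaving out each mouse. The edgeR gene test and diffSpliceDGE were tried on simulated gastrocnemius counts, with bins drawn independently. The fit across muscles, DESeq2 and voom were not. The 10 genes, the lists and the named bins (up to 5 called bins a gene with the smallest P, and up to 5 pathway genes a muscle) were chosen with earlier results of these data known. Ryr1 bin 027, Stim1 bin 025 and the Atp2a2 end bins were added later as known isoforms, after their values were seen.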

Additional observations from a re-analysis of the deposited data

How the results depend on the processing

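Under alternatives other than leaving out a mouse, 56 counts of called genes or bins stayed within 1.5 times the reported one and 10 did not. Of the single values, 578 kept their direction and side of the threshold, 22 passed it, 20 no longer did and 8 reversed. The cause of the other changes was not tested unless given. Of the bins of the 10 genes, HSA-LR against WT gastrocnemius gave 38 called with 5′ to 3′ coverage as a covariate (chosen after seeing the data) and 28 with limma voom, treated against HSA-LR quadriceps gave 17 with the covariate, and treated against WT quadriceps gave 2 with limma voom. Of the 10 genes, HSA-LR against WT gastrocnemius gave 1 called with the replicate block and HSA-LR against WT quadriceps 1 when each gene was counted by its largest bin alone. Treated against HSA-LR gastrocnemius gave 4 with DESeq2, 1 with every gene of at least 1 count and 1 with the replicate block. Quadriceps against gastrocnemius in WT mice gave 1 (Atp2a2) with the mouse as a block.

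Leaving out each mouse in turn gave 25 to 64 bins called in HSA-LR against WT gastrocnemius, where the lowest count came without HSA-LR mouse 2 and 29 came without HSA-LR mouse 3, WT mouse 1 or WT mouse 3. It gave 5 to 20 in the quadriceps (5 without HSA-LR mouse 2, 8 without WT mouse 3, 11 without WT mouse 2), 6 to 12 in treated against HSA-LR quadriceps and 0 to 3 in treated against WT gastrocnemius. Genes called ran from 1 to 3 and from 1 to 4 in HSA-LR against WT gastrocnemius and quadriceps, from 1 to 3 and from 0 to 4 in treated against HSA-LR mice, from 0 to 1 in both muscles of treated against WT mice and from 0 to 1 in quadriceps against gastrocnemius in WT mice.

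Values that reversed were small, except for those of Atp2a2, Casq2 and Ryr3 and of low-count or 5′ bins. The log2 FC of treated against WT quadriceps became 0.0266 for Atp2a1 and -0.0418 for Ryr1 with the largest bin. Casq1 bin 007 in treated against HSA-LR mice became 0.26 with the covariate in the gastrocnemius and 0.0150 with limma voom in the quadriceps. In HSA-LR against WT quadriceps, Ryr1 bins 106 and 107 became 0.0319 and 0.0373 with limma voom and 0.0289 and 0.0305 with the replicate block. Without single mice, the ranges were -0.10 to 0.0289 and -0.15 to 0.0829 for Atp2a1 in treated against WT gastrocnemius and quadriceps and -0.0217 to 0.13 for Ryr1 in the former. They were -0.46 to 0.0157, -0.42 to 1.504 and -0.65 to 1.30 for gastrocnemius Atp2a2 in HSA-LR against WT, treated against HSA-LR and treated against WT mice, -0.10 to 0.76 for Casq2 in treated against HSA-LR gastrocnemius and -0.34 to 0.50 for Ryr3 in HSA-LR against WT quadriceps. For Casq1 bin 007 in treated against HSA-LR mice they were -0.99 to 0.0755 and -0.54 to 0.45, and for Ryr1 bins 106, 107, 109 and 111 in HSA-LR against WT quadriceps -0.42 to 0.57, -0.41 to 0.62, -0.52 to 0.59 and -0.58 to 0.57.

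Numbers shared between groups do not pair the mice (median r = -0.00728, -0.495 to 0.412 over 18 pairs of groups), so the replicate block is given as an alternative alone. With it, the adjusted P of Atp2a1 in HSA-LR against WT gastrocnemius was 0.149. With 3 mice a group, 1 mouse decided many gene calls, and bins of low counts, such as Casq1 bin 007, carried the least precision.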

Other observations

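Some bins and genes had patterns over the 18 libraries like those of Atp2a1 exon 22 and Sln, apart from the size of the changes. By the root mean square difference of standardised log2 values, the 5 bins of other genes nearest to Atp2a1 exon 22, of 111236 compared, were Trim55 bin 011 (0.148), Dcaf6 bin 018 (0.159), Rilpl1 bin 005 (0.17), Camk2b bin 016 (0.172) and Ighm bin 001 (0.174). Trim55 encodes a ubiquitin ligase of the sarcomere, and Camk2b a subunit of the calmodulin kinase. The 5 genes nearest to Sln in level, of 11244 compared, were Homez (0.315), Ctnna3 (0.323), Scube2 (0.337), Uchl1 (0.361) and Rnf115 (0.364). Standardising removes the size of a change. In WT and HSA-LR gastrocnemius, the mean level was 1.65 and 2.53 CPM for Homez and 6.51 and 43.9 CPM for Uchl1. For Sln it was 3.15 and 78.8 CPM. These values are descriptions with no test, over libraries that fall into 3 groups.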
